A study of Mus musculus with 20 samples.

Results

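Catecholamines are made in the adrenal medulla by chromaffin cells, and 10 genes of this pathway and of its storage granules were followed here: Th, Ddc, Dbh, Pnmt, Gch1, Slc18a1, Slc18a2, Chga, Chgb and Cyb561. They were chosen by name, as the enzymes, cofactor enzyme, transporters and core granule proteins of the pathway, and are 10 of the 47729 genes in the table. All 10 passed the filter on low values and were tested. Whole adrenal glands of mice were used for RNA sequencing, with 5 libraries from control females, 5 from Bmal1 KO females, 6 from control males and 4 from Bmal1 KO males. Controls are labelled SCC::Cre_CTRL and the other genotype SCC::Cre_BMAL1 KO, so every group carried the SCC::Cre driver, and the latter are called knockout below. By the series' title the deletion is in the adrenal cortex. The genes described here were chosen for their part in the medulla, the neighbouring tissue of the same gland. In whole glands their reads may also come from other cells, which was not tested. The sources used here do not give the other alleles of the controls, the exons removed from Bmal1 or the time of day of collection. Among females, controls were 1.5 to 3.4 months old and knockouts 2.4 to 3.4 months. Among males, controls were 2.9 to 4.7 months old and knockouts 2.9 to 3.7 months.

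Tyrosine hydroxylase, encoded by Th, carries out the rate-limiting step from tyrosine to L-DOPA and needs tetrahydrobiopterin, whose synthesis starts with GTP cyclohydrolase, encoded by Gch1. Aromatic amino acid decarboxylase (Ddc) turns L-DOPA into dopamine, the vesicular monoamine transporters (Slc18a1 and Slc18a2) load it into granules, and dopamine beta-hydroxylase (Dbh) makes noradrenaline there, with ascorbate that cytochrome b561 (Cyb561) helps to regenerate. Phenylethanolamine N-methyltransferase (Pnmt) converts noradrenaline to adrenaline and is known to be induced by glucocorticoids that reach the medulla from the cortex. Chromogranin A (Chga) and chromogranin B (Chgb) are the main soluble proteins of the granule core.

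Promoter sequences were at hand for 7 of the 10 genes, from RefSeq on GRCm38.p6, and were searched because transcription of this pathway is known to respond to cyclic AMP and because the clock protein BMAL1 binds E-boxes. The cyclic AMP response element TGACGTCA was found, on either strand from 250 bases before to 50 after the start site, in Th, Chgb and Slc18a2, which is 3 of 7 genes, against 1.79% of 32817 promoters in the same table. The shorter TGACG, which lies inside TGACGTCA on both strands, was found in 6 of 7 genes (Th, Chgb, Slc18a2, Chga, Gch1 and, on the minus strand, Dbh) against 20.8% of promoters. The E-box CACGTG was found in 0 of 7 genes and in 7.15% of promoters. These are matches of letters and no factor binding was measured. The 5 promoters with TGACG on the strand of the gene are shown 5′ to 3′, with TGACG and the 3 bases after it in capitals so that the intact and the altered elements can be compared. The stretches are chr7:142899996-142900095 on the minus strand for Th, chr2:132781542-132781641 on the plus strand for Chgb, chr19:59260782-59260881 on the plus strand for Slc18a2, chr12:102554841-102554940 on the plus strand for Chga and chr14:47189414-47189513 on the minus strand for Gch1.
Th: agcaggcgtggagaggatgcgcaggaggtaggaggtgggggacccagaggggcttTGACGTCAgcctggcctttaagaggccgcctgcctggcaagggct
Chgb: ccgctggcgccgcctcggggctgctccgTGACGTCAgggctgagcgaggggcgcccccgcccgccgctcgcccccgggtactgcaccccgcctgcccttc
Slc18a2: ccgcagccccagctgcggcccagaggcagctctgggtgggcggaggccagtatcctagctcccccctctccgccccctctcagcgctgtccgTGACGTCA
Chga: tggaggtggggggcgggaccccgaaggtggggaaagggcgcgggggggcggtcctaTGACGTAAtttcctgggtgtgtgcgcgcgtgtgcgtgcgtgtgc
Gch1: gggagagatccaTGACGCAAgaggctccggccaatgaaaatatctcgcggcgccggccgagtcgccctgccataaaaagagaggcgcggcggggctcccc
Th has TGACGTCA from -45 to -38 counted from the start site, Chgb from -72 to -65, and in Slc18a2 it spans the start site itself, so that stretch ends 4 bases past it. Chga has TGACGTAA starting at -44 and Gch1 has TGACGCAA starting at -88. The start site used for Th lies 31133 bases from the start of its GENCODE gene, inside the longer span given for Th below. For the other genes shown the distance is at most 364 bases.

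Depth ran from 13421985 reads (control male 4) to 26742820 reads (knockout male 1) per library, and values are normalised read counts, that is reads divided by 1 size factor per library. The whole-gene value of Arntl, which encodes BMAL1, was 618 ± 147 (SD, n = 5) in control females, 905 ± 71.8 (n = 5) in knockout females, 663 ± 238 (n = 6) for control males, then 923 ± 69.8 (n = 4) for knockout males. A sum over the whole gene does not check a deletion of some exons, and here libraries with the BMAL1 KO label had no lower values than controls on average. Differences were tested with limma on log2(value + 1) over 26612 genes, with calls made where the p-value adjusted by Benjamini-Hochberg was under 0.05. The KO comparisons and the sex comparisons share groups of libraries, so their values are given side by side and are not independent. Libraries of equal age label are not stated to come from separate animals, so the p-values cover only the spread among these samples, part of which may be technical.

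Chromogranin transcripts were the most abundant of the set in every library. Per kilobase of exon, the median normalised read count over the 20 libraries was 24450 for Chgb and 17440 for Chga, then 3577 for Th, 2531 for Dbh and 2124 for Pnmt. Cyb561 followed at 1207, and the lowest 4 levels per kilobase were 339 for Gch1, 238 for Ddc, 211 for Slc18a1 and 138 for Slc18a2. Most steps of this order held throughout, with Chgb above Chga, Chga above Th, Th above Dbh, Cyb561 above Gch1 and Slc18a1 above Slc18a2 in 20 of 20 libraries. Dbh lay above Pnmt in 12 of 20 libraries and Gch1 above Ddc in 13 of 20, so these neighbours could not be ordered across all libraries. Pnmt above Cyb561 and Ddc above Slc18a1 each held in 17 of 20. Both transporters were thus read at far lower levels per kilobase than the cargo proteins, and Slc18a1 exceeded Slc18a2 by 1.11 to 1.96 times. Exon lengths are from GENCODE M21 and take every annotated exon as used, so levels are approximate.

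On GRCm38 the 10 genes lie on 7 chromosomes and in no common cluster. Th is at chr7:142892752-142931128 on the minus strand, Ddc at chr11:11814101-11898144 on the minus strand, Dbh at chr2:27165233-27183200 on the plus strand and Pnmt at chr11:98386450-98388181 on the plus strand. Gch1 is at chr14:47153895-47189413 on the minus strand and Cyb561 at chr11:105933702-105953336 on the minus strand. Slc18a1 is at chr8:69037711-69089235 on the minus strand and Slc18a2 at chr19:59260896-59296012 on the plus strand, with Chga at chr12:102554969-102565028 and Chgb at chr2:132781278-132795079, both on the plus strand. Slc18a1 overlaps the opposite-strand gene Atp6v1b2, whose mean value was 3746, but they share 0 exon bases in the annotation. The sources used here do not say whether counting used the strand.

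Most of the 10 genes moved between libraries together with other chromaffin transcripts. The level of these was followed with an index, the mean log2(value + 1) of 17 other chromaffin genes such as Phox2a, Hand2, Scg2 and Snap25. In control males the index ran from 8.75 in control male 4 to 9.89 in control male 2, a wider range than the 9.02 to 9.25 of control females. It was 8.71 to 9.15 in knockout females and 9.01 to 9.35 in knockout males. Control male 2 was thus rich in chromaffin transcripts and control male 4, which also had the fewest reads, was poor in them. The index averaged 9.18 ± 0.09 (SD, n = 5) among control females against 8.97 ± 0.19 (n = 5) among knockout females. Among males it averaged 9.37 ± 0.41 (n = 6) for controls against 9.22 ± 0.15 (n = 4) for knockouts. In bulk tissue, fewer chromaffin cells and less RNA per cell cannot be told apart.

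Taking the index away from each gene narrowed the spread between libraries of 1 group for 9 of the 10 genes. The within-group SD on the log2 scale went from 0.26 to 0.10 for Slc18a1, from 0.27 to 0.13 for Ddc, from 0.28 to 0.14 for Chgb and from 0.29 to 0.15 for Chga. Th went from 0.31 to 0.19 and Pnmt only from 0.46 to 0.41, which left Pnmt the most variable of the set. Gch1 was the exception, with an SD of 0.21 as read and 0.30 relative to the index. Gch1 was thus the only one of the 10 whose libraries lay further apart relative to the index, and the plot of levels relative to the index shows it beside Th, Pnmt and Slc18a1. Which cells of the gland the Gch1 reads came from was not tested.

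**Figure D1:**
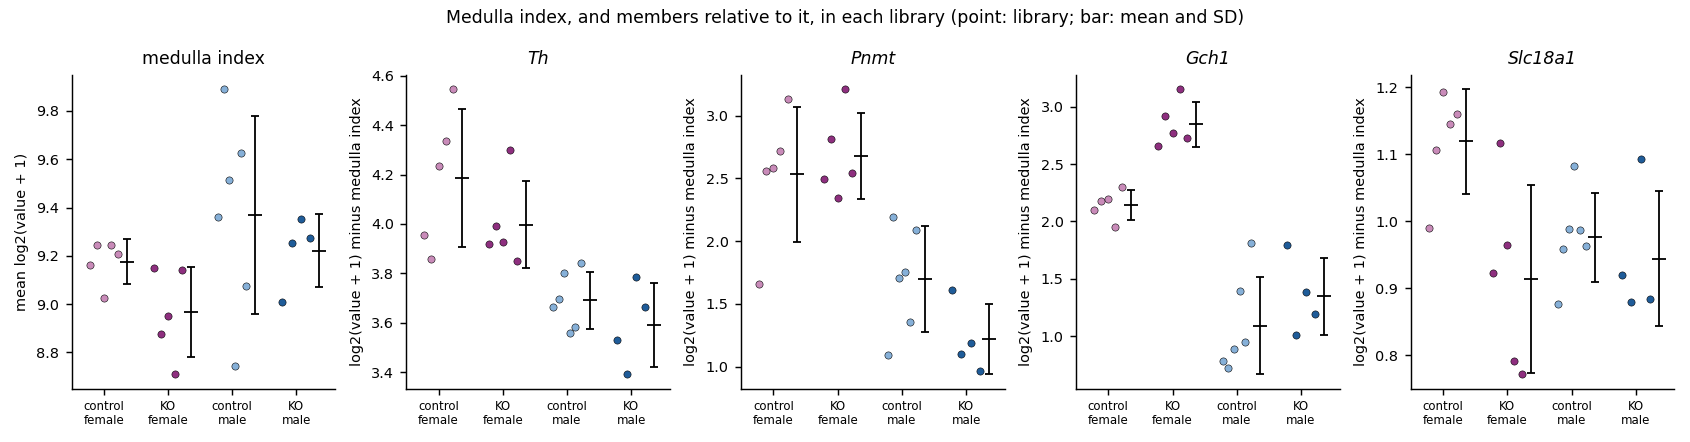
Medulla index (first panel, mean log2(value + 1) of its 17 genes) and the levels of Th, Pnmt, Gch1 and Slc18a1 relative to it (log2(value + 1) minus the index, vertical axes that do not start at 0) in every library, by group on the horizontal axis, with points for libraries and bars for the mean and SD. Gch1 averages 2.14 in control females, 2.85 in knockout (KO) females, 1.09 in control males and 1.35 in knockout males, and Th lies higher in all females than in all males.

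Gch1, which makes the first and rate-limiting step of tetrahydrobiopterin synthesis, was the member with the clearest differences: it was higher in females than in males and higher in knockout females than in control females. Control females had normalised read counts of 2451, 2749, 2377, 2351 and 2908. Knockout females had 3584, 3562, 3375, 3733 and 3748. Every knockout female library lay above every control female library. The share of all genes whose groups separate in this way was not worked out. Non-overlap, here and for the genes below, is therefore a description and not a test. In control males Gch1 ranged from 1128 to 1890 with a median of 1436. Knockout males had 1784, 1231, 1707 and 1416, inside the range of the control males. All 10 female libraries lay above all 10 male libraries.

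By limma, Gch1 rose in knockout females by 0.49 ± 0.12 (SE) on the log2 scale (adjusted p = 0.0418), from a mean of 2567 to 3600, or 1.40-fold. It was the only one of the 10 genes called in that comparison, in which 1.75% of all genes tested were called. The call was close to the threshold. It was lost when any 1 of control females 1 to 4, knockout females 1 to 5, control male 3 or knockout male 4 was left out, with adjusted p from 0.0506 to 0.105 and a log2 difference that stayed between 0.46 and 0.52. Relative to the medulla index the difference was 0.70 with an adjusted p of 0.0975 (0 of 10 genes called, 0.838% of all), and without a filter on low values the adjusted p was 0.0539. In males the difference was 0.11 ± 0.13 (adjusted p = 0.839). The test of the difference between the female and the male effect gave 0.38 ± 0.18 (adjusted p = 0.759), so a difference between the sexes in the response of Gch1 was not shown.

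Between the sexes, Gch1 was higher in control females than in control males by 0.86 ± 0.12 on the log2 scale (limma adjusted p = 1.24e-05), a 1.79-fold difference of means. It was the only one of the 10 genes called there, with 26.4% of all genes called. In knockout glands the difference was 1.24 ± 0.13 (adjusted p = 5.07e-07), or 2.35-fold. Both calls held relative to the medulla index, at 1.05 (adjusted p = 0.000256) and 1.50 (adjusted p = 9.05e-06), and with age as a covariate, at 0.77 (adjusted p = 0.00127) and 1.21 (adjusted p = 2.06e-06). Leaving out any 1 library kept the control difference between 0.80 and 0.95 and the knockout difference between 1.14 and 1.32.

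**Figure D2:**
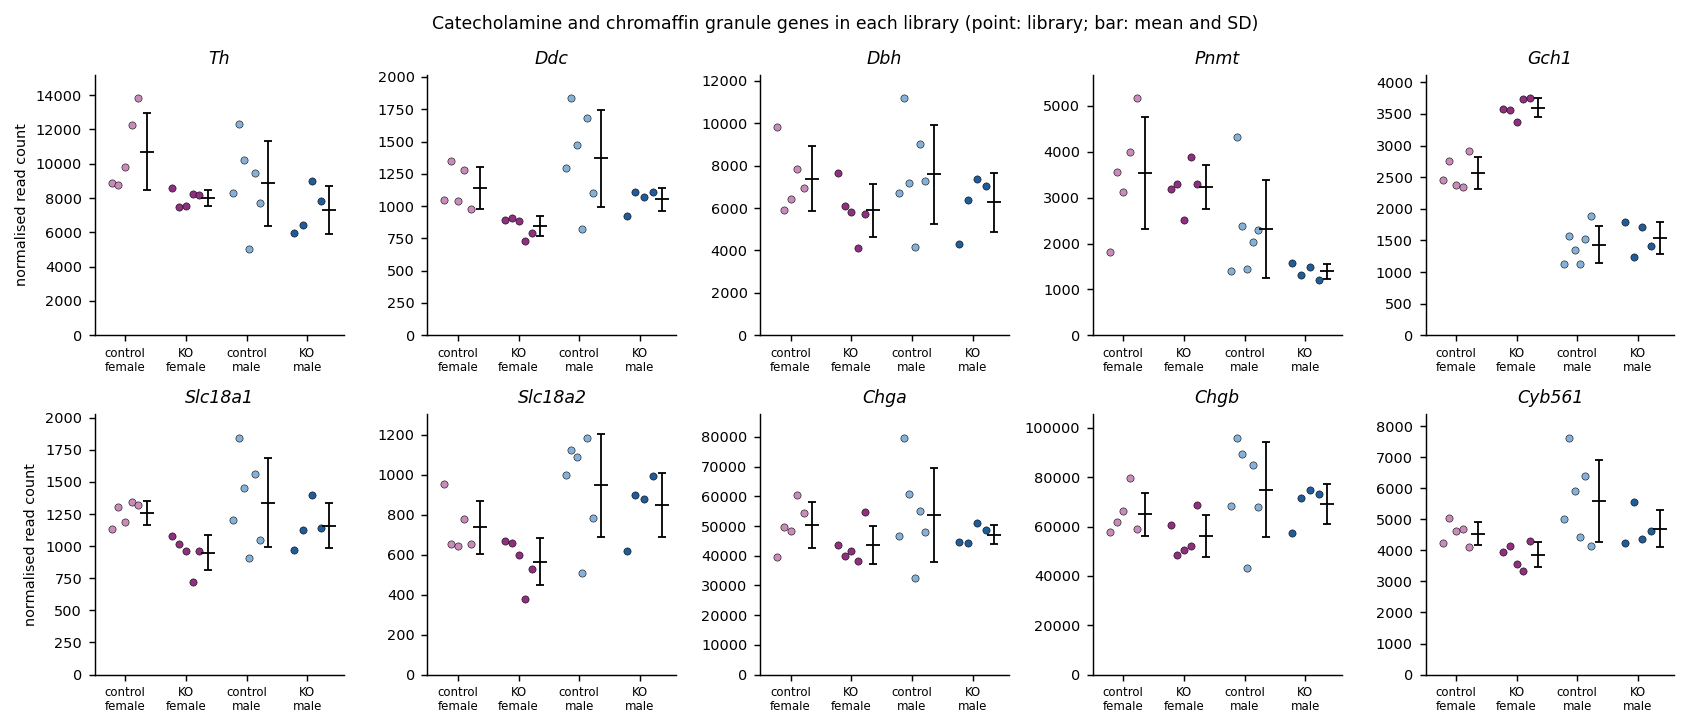
Normalised read count (vertical axis, from 0) of each of the 10 genes in every library, by group on the horizontal axis, with points for libraries and bars for the mean and SD. Gch1 shows all knockout females above 3370 and all males below 1900, and Pnmt shows all knockout females above all knockout males.

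Pnmt, the enzyme that makes adrenaline, differed by sex in knockout glands and varied widely among controls. Control females had 1809, 3569, 3124, 4004 and 5169 normalised reads. Knockout females had 3199, 3298, 2510, 3881 and 3292. The knockout females lay inside the range of the controls, in which control female 1 was low and control female 5 high. Control males ranged from 1398 to 4328 with a median of 2161. Knockout males had 1573, 1309, 1490 and 1209. Control male 2, the library with the highest medulla index, stood far above the other control males, and the knockout males overlapped only the lower control males.

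For Pnmt, limma gave 1.21 ± 0.27 on the log2 scale for females over males in knockout glands (adjusted p = 0.0027), a 2.32-fold difference of means with no overlap. Pnmt and Gch1 were the 2 of 10 genes called there, against 22.8% of all genes. In controls Pnmt differed by 0.64 ± 0.25 (adjusted p = 0.0609) and was not called. Relative to the medulla index it was 0.83 (adjusted p = 0.0167), it was 0.86 (adjusted p = 0.00797) without control female 1 and 0.84 (adjusted p = 0.00617) without control male 2, and with age as a covariate it was 0.46 (adjusted p = 0.381). The value relative to the index includes the shift in the median of all genes given above. The KO difference in Pnmt was -0.06 ± 0.26 (adjusted p = 0.969) in females and -0.63 ± 0.26 (adjusted p = 0.365) in males, where the ratio of means was 0.603. Neither was called, and the test of the difference between them gave 0.57 ± 0.37 (adjusted p = 0.894).

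The ratio of Pnmt to Dbh compares the enzyme of the adrenaline step with that of the noradrenaline step inside 1 library. It was 0.185, 0.607, 0.485, 0.509 and 0.746 in control females. In knockout females it was 0.417, 0.541, 0.432, 0.946 and 0.573. It lay between 0.209 and 0.387 in control males and was 0.366, 0.205, 0.203 and 0.172 in knockout males. All 5 knockout females lay above all 10 males, whereas control female 1 had a ratio below those of all control males. That library had the lowest Pnmt and the highest Dbh and Slc18a2 of its group, and was the oldest control female at 3.4 months.

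Th, the rate-limiting enzyme of the pathway, was lower in knockout females than in control females in every library but did not pass the test. Control females had 8875, 8787, 9802, 12259 and 13818 normalised reads. Knockout females had 8595, 7469, 7535, 8240 and 8155. The groups did not overlap, and the 2 highest values were those of the 1.5-month-old control females. Control males ranged from 5057 to 12326 with a median of 8884. Knockout males had 5936, 6408, 9013 and 7828, all inside that range. The difference was -0.40 ± 0.18 (limma adjusted p = 0.375) in females and -0.25 ± 0.18 (adjusted p = 0.695) in males.

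By sex, Th in controls differed by 0.30 ± 0.17 (limma adjusted p = 0.211). Relative to the medulla index, however, all 10 female libraries, at 3.85 or more, lay above all 10 male libraries, at 3.84 or less, and the control difference was 0.50 (adjusted p = 0.0417). That call rested on the scaling, which moved the median of all genes to 0.14 from -0.05, and under which Th, Pnmt and Gch1 were the 3 of 10 genes called against 11.8% of all. In knockout glands the scaled difference was 0.41 (adjusted p = 0.143), and 2 of the 10 genes, Pnmt and Gch1, were called against 10.5% of all. The ratio of Gch1 to Th was 0.417 to 0.477 in knockout females, above the 0.192 to 0.313 of control females, the 0.127 to 0.244 of control males and the 0.181 to 0.300 of knockout males.

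Ddc, which makes dopamine, had KO differences near those of Th, but its sex differences lay on the other side of 0. Control females had 1050, 1353, 1040, 1281 and 977 normalised reads. Knockout females had 893, 910, 888, 733 and 788. These groups did not overlap. Control males ranged from 826 to 1835 with a median of 1384. Knockout males had 920, 1106, 1074 and 1108 and lay inside that range, though above all knockout females. By limma the KO difference was -0.43 ± 0.16 (adjusted p = 0.230) in females and -0.33 ± 0.16 (adjusted p = 0.462) in males. Females minus males gave -0.23 ± 0.15 (adjusted p = 0.299) in controls and -0.32 ± 0.17 (adjusted p = 0.183) in knockout glands. A fit on the knockout libraries alone put the last at an adjusted p of 0.0285, and leaving out control male 4 gave -0.36 (adjusted p = 0.0347) in controls.

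Dbh and its partner Cyb561, the granule-membrane protein that passes electrons for ascorbate, showed no called difference. Dbh averaged 7384 ± 1534 (SD, n = 5) in control females, 5884 ± 1270 (n = 5) in knockout females, 7585 ± 2350 (n = 6) for control males, then 6267 ± 1375 (n = 4) for knockout males. The KO difference of Dbh was -0.33 ± 0.21 (limma adjusted p = 0.606) in females and -0.24 ± 0.22 (adjusted p = 0.766) in males, with overlapping groups in both. Cyb561 averaged 4540 ± 376, 3867 ± 396, 5586 ± 1319 and 4703 ± 596 in the same order of groups. Its KO difference was -0.23 ± 0.13 (adjusted p = 0.527) in females and -0.22 ± 0.13 (adjusted p = 0.598) in males. By sex, Cyb561 differed in controls by -0.27 ± 0.13 (adjusted p = 0.122), and by -0.35 (adjusted p = 0.032) without control male 6.

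The 2 vesicular monoamine transporters gave no call in the main limma fit. The largest difference was that for KO in females for Slc18a1 and that of the sex comparison in knockout glands for Slc18a2. Slc18a1, the endocrine form, had 1136, 1304, 1189, 1343 and 1319 normalised reads in control females. In knockout females Slc18a1 had 1077, 1018, 965, 724 and 964, all below the controls. Its difference there was -0.42 ± 0.15 (limma adjusted p = 0.227), and in males, where groups overlapped, it was -0.18 ± 0.16 (adjusted p = 0.760). By sex, Slc18a1 gave no call either, at -0.05 ± 0.15 (adjusted p = 0.845) in controls and -0.29 ± 0.16 (adjusted p = 0.223) in knockout glands.

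Slc18a2, the form that also serves neurons, had 955, 656, 645, 778 and 652 normalised reads in control females. Knockout females had 667, 660, 597, 377 and 527, partly below them. Slc18a2 ranged from 508 to 1187 in control males with a median of 1045, and was 619, 899, 881 and 994 in knockout males. The knockout females lay mostly below the knockout males, with 2 of the 5 above the lowest male. That sex difference was -0.59 ± 0.22 (limma adjusted p = 0.0545). It was called by edgeR (adjusted p = 0.037) and DESeq2 (adjusted p = 0.0279) on the recovered reads and, by limma, with a stricter filter (adjusted p = 0.0447) or on the knockout libraries alone (adjusted p = 0.0429), and relative to the medulla index it was -0.34 (adjusted p = 0.220). The KO difference was -0.39 ± 0.20 (adjusted p = 0.484) in females and -0.13 ± 0.21 (adjusted p = 0.902) in males. Control females and males differed by -0.33 ± 0.20 (adjusted p = 0.245), and by -0.49 (adjusted p = 0.0309) without control male 4.

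Chromogranins varied with the medulla index and showed no called difference. Chga averaged 50367 ± 7716 (SD, n = 5) in control females, 43614 ± 6544 (n = 5) in knockout females, 53767 ± 15880 (n = 6) for control males, then 47128 ± 3300 (n = 4) for knockout males. Its highest value, 79786, was in control male 2 and its lowest, 32520, in control male 4. Chgb averaged 64905 ± 8873, 56134 ± 8442, 74993 ± 19262 and 69187 ± 8037 in the same order, with the same 2 libraries at its ends. By limma the KO differences were -0.21 ± 0.17 for Chga (adjusted p = 0.720) and -0.21 ± 0.17 for Chgb (adjusted p = 0.700) in females, and -0.14 ± 0.17 (adjusted p = 0.852) and -0.08 ± 0.17 (adjusted p = 0.935) in males. Relative to the medulla index these were 0.0044 and -0.0019 in females and 0.0072 and 0.07 in males. The ratio of Chgb to Chga stayed between 1.09 and 1.62 over all libraries.

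Across the 10 genes, the KO difference was below 0 for 9 in females and for 9 in males, Gch1 being the exception each time. The median of the 10 log2 differences was -0.28 in females and -0.20 in males, beside 0.00 over all genes tested in both. The medulla index genes had medians of -0.21 and -0.15 in the same comparisons. In females limma called 1 of the 10 genes (4 at an unadjusted p under 0.05, and 1 each by edgeR and DESeq2), against 1.75% of all genes. There 3110 of all 26612 genes were under that unadjusted p. In males limma called 0 of the 10 genes (1 at an unadjusted p under 0.05, and 0 by edgeR or DESeq2), against 1.33% of all genes. For the difference between the 2 effects it called 0 as well (1 at an unadjusted p under 0.05, and 0 by edgeR or DESeq2), against 0.0301%. Of all 26612 genes, 2899 in males and 1715 for the difference were under that unadjusted p. For females, males and the difference, edgeR called 518, 401 and 10 of 18387 genes and DESeq2 called 913, 726 and 83 of 34379. The KO counts of the lists below stand beside these same whole-table counts. Counts of 1 and 0 of 10 are too small to be read against these shares, and the plot of differences gives each gene with its error.

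**Figure D3:**
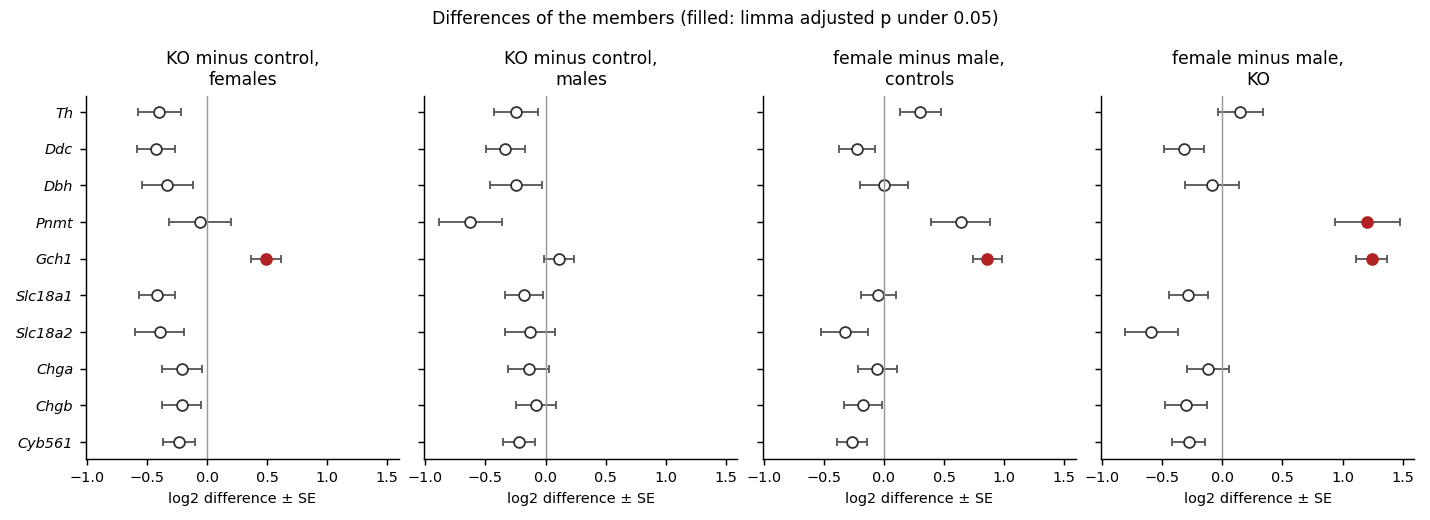
Log2 difference with its SE (horizontal axis) for each of the 10 genes (vertical axis) in 4 comparisons, with filled points for a limma adjusted p under 0.05. Filled points are Gch1 in 3 comparisons and Pnmt for sex in knockout glands, and 9 of the 10 points lie left of 0 in each KO panel.

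Genes that supply, break down or take up the transmitters were read from lists. Of 5 genes for the rest of tetrahydrobiopterin supply, limma called 0 in either KO comparison (0 at an unadjusted p under 0.05 in each, and 0 by edgeR or DESeq2), with median log2 differences of -0.04 in females and -0.03 in males. Pts, which makes the next step after Gch1, was higher in females than in males in knockout glands by 0.22 ± 0.06 (adjusted p = 0.0128), at 1185 ± 70.3 (SD, n = 5) against 1018 ± 37.4 (n = 4). It was the 1 of 5 called there, against 22.8% of all genes. None of the 5 was called by sex in controls (0 at an unadjusted p under 0.05), against 26.4% of all genes. Counts out of 5 are too small to be read against these shares. The other 4 of the list thus gave no call where Gch1 did.

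Among 5 genes for breakdown and uptake, Maoa, which deaminates catecholamines, was lower in females than in males by -0.69 ± 0.09 in controls and by -0.67 ± 0.10 in knockout glands (limma adjusted p = 4.46e-06 and 2.85e-05). Control females averaged 2071 ± 134 (SD, n = 5) for Maoa, against 3345 ± 395 (n = 6) for control males. The gene is not specific to chromaffin cells, and its difference was not called relative to the medulla index (adjusted p = 0.0768 in controls). For KO no gene of the 5 was called by limma in females (1 at an unadjusted p under 0.05, 0 by edgeR, 1 by DESeq2) or males (0, 0 and 0). Slc6a2, the noradrenaline transporter, came nearest in females at -0.74 ± 0.22 (adjusted p = 0.0955).

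Among 11 transcription factors of chromaffin cells and of Pnmt, none was called for KO in females (0 at an unadjusted p under 0.05) or in males (1), nor by edgeR or DESeq2. Egr1, an immediate early factor known to act on the Pnmt promoter, was lower in females than in males by -1.43 ± 0.23 in controls (limma adjusted p = 9.59e-05) and by -0.93 ± 0.26 in knockout glands (adjusted p = 0.012). Its values were 5501 ± 2174 in control females and 14092 ± 3451 in control males. A link between the levels of Egr1 and Pnmt was not tested. Sp1, a general factor, was lower in knockout females than in knockout males by -0.85 ± 0.29 (adjusted p = 0.0413), a call lost without any 1 of 6 libraries (knockout females 2, 4 and 5 and knockout males 1, 2 and 3), without a filter (adjusted p = 0.0533), on the knockout libraries alone (adjusted p = 0.0562) and relative to the medulla index (adjusted p = 0.256). Egr1 was the 1 called of 11 in controls, against 26.4% of all genes, and these 2 were the called ones in knockout glands, against 22.8%. Both factors are known from many cell types.

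Of 13 granule cargo and processing genes, 4 were called by sex in each genotype, 2 in each direction, against 26.4% of all genes in controls and 22.8% in knockout glands, which is near the share in the list. For this list 0 were called for KO in females (3 at an unadjusted p under 0.05) or males (1), nor by edgeR or DESeq2. Penk, the precursor of enkephalins, was lower in females, by -0.72 ± 0.26 in controls (limma adjusted p = 0.0404) and -1.33 ± 0.28 in knockout glands (adjusted p = 0.0016). Penk averaged 279 ± 62.4, 188 ± 52.2, 483 ± 208 and 497 ± 225 in control females, knockout females, control males and knockout males. Vgf, another granule peptide precursor, was higher in females by 0.81 ± 0.29 (adjusted p = 0.0435) and 1.20 ± 0.32 (adjusted p = 0.00954). Scg5, a chaperone of a prohormone convertase, was lower in females by -0.49 ± 0.13 (adjusted p = 0.00765) and -0.44 ± 0.14 (adjusted p = 0.0314), and Pam, which amidates peptides, was higher by 0.18 ± 0.06 (adjusted p = 0.05, just under the threshold) and 0.31 ± 0.07 (adjusted p = 0.00311). In controls the call of Penk was lost without any 1 of control females 2, 3 and 5 and control males 1, 3, 5 and 6, and without a filter (adjusted p = 0.052). That of Vgf was lost without any 1 of control females 1, 2, 4 and 5, knockout female 3, control males 1, 2, 3, 4 and 6 and knockout male 3, and edgeR and DESeq2 did not make it (adjusted p = 0.0852 and 0.0767). That of Pam was lost without any 1 library other than control female 2, control males 4 and 6 and knockout male 1. With age as a covariate all 4 control calls were lost, at -0.61 for Penk (adjusted p = 0.255), 0.65 for Vgf (adjusted p = 0.287), -0.46 for Scg5 (adjusted p = 0.0747) and 0.13 for Pam (adjusted p = 0.342). In knockout glands the call of Scg5 was lost with age, at -0.43 (adjusted p = 0.0529), and without any 1 of knockout females 1, 3 and 4 and knockout males 2, 3 and 4.

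The 14 genes of exocytosis held the 1 KO call among these lists, in males, where 1.33% of all genes were called. Stx1a, a syntaxin of the fusion machinery, rose in knockout males by 0.62 ± 0.14 (limma adjusted p = 0.0251), from 207 ± 21.6 to 318 ± 43.0. The call was lost without control male 4 or any 1 of knockout males 1 to 3, with adjusted p up to 0.108. It was also lost with the replicate number as a block, at 0.57 (adjusted p = 0.161), and relative to the medulla index, where the difference was larger, at 0.76 (adjusted p = 0.159). In females limma called 0 of the 14 (2 at an unadjusted p under 0.05, 0 by edgeR, 1 by DESeq2). The Stx1a difference was 0.50 there, the highest of the list. Its values were 145, 172, 207, 143 and 141 in control females and 208, 255, 176, 229 and 277 in knockout females. The female minus the male effect on Stx1a was -0.12 and was not called, so a rise particular to males was not shown. By sex in controls, Cadps2, a priming factor for dense-core vesicles, was higher in females by 1.60 ± 0.21 (adjusted p = 7.70e-06). Vamp2 and Stx1a, parts of the fusion machinery, were lower by -0.59 ± 0.08 (adjusted p = 9.44e-06) and -0.36 ± 0.13 (adjusted p = 0.0417). In knockout glands Cadps2 was higher by 1.91 ± 0.23 and Vamp2 and Stx1a lower by -0.41 ± 0.09 and -0.48 ± 0.14. Of the list, 4 of 14 were called by sex in controls and 3 of 14 in knockout glands, against 26.4% and 22.8% of all genes. Cadps2 averaged 209 ± 46.3 in control females and 67.3 ± 10.2 in control males, and its call held relative to the medulla index, while those of Vamp2 and Stx1a did not. In controls the Stx1a call was lost without any 1 of control females 1, 4 and 5 and control males 1, 2, 3 and 5. It was also lost with age as a covariate, at -0.22 (adjusted p = 0.410), without a filter (adjusted p = 0.0504) and on the control libraries alone (adjusted p = 0.0538). In knockout glands the Stx1a call was lost without knockout female 3 or knockout male 2.

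Of 9 genes for the splanchnic stimulus and calcium entry, the calcium channel gene Cacna1d was lower in females by -0.60 ± 0.13 in controls (limma adjusted p = 0.00119) and by -0.61 ± 0.14 in knockout glands (adjusted p = 0.00276). Cacna1c, another calcium channel gene, at -0.76 ± 0.17 (adjusted p = 0.00226), and Chrna7, a nicotinic receptor gene, at -0.62 ± 0.20 (adjusted p = 0.0319), were lower in females in knockout glands. Thus 1 of 9 was called by sex in controls and 3 of 9 in knockout glands, against 26.4% and 22.8% of all genes. The call of Chrna7 was lost without any 1 of knockout female 4 and knockout males 2, 3 and 4 and with age as a covariate, at -0.56 (adjusted p = 0.0662), and none of the 3 genes was called relative to the medulla index. For KO limma called 0 of 9 in females (3 at an unadjusted p under 0.05) and 0 in males (0), and edgeR and DESeq2 called none. Their median KO difference was -0.35 in females and -0.11 in males, and the plot of the lists shows each gene. For the difference between the female and the male KO effect, limma called 0 genes in each of these lists (0 at an unadjusted p under 0.05, and 0 by edgeR or DESeq2).

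**Figure D4:**
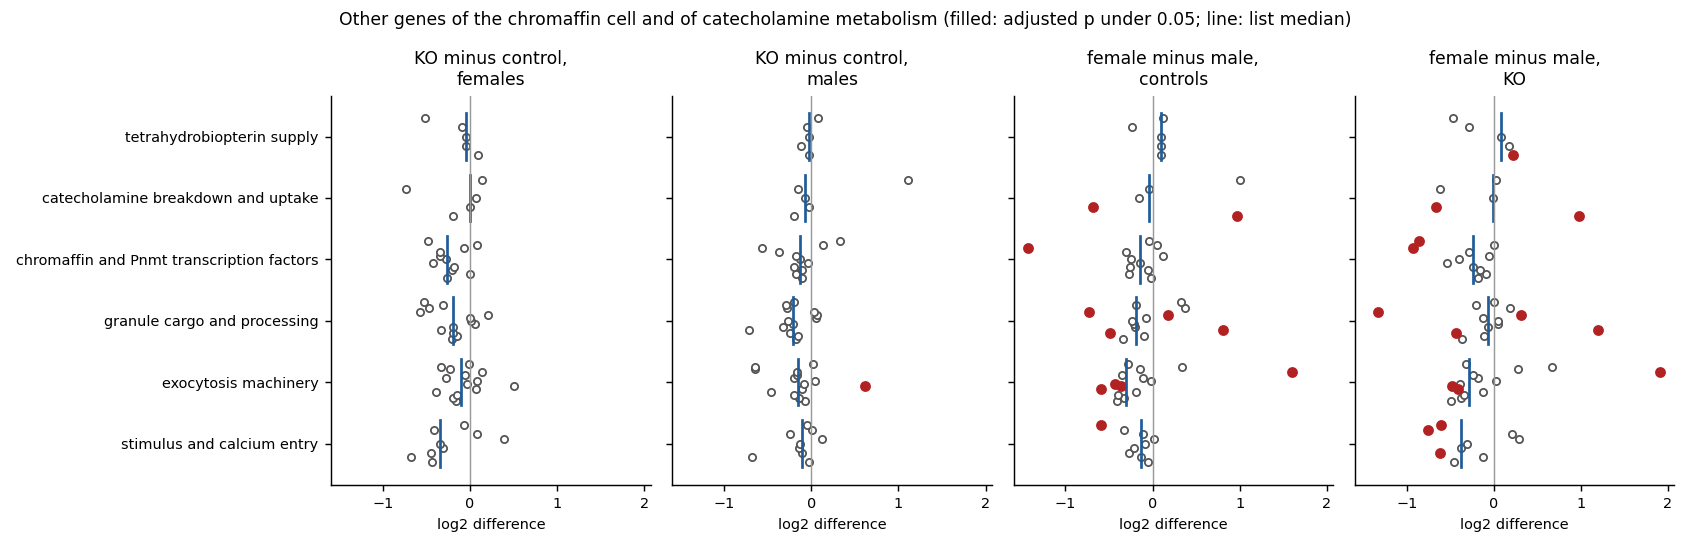
Log2 difference (horizontal axis) of each gene of 6 pathway lists (vertical axis) in 4 comparisons, KO standing for knockout, with points for genes, a vertical line at each list's median and filled points for a limma adjusted p under 0.05. The list medians for KO in females run from -0.35 to -0.01, and all filled points but Stx1a in KO males lie in the sex comparisons.

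Of the 17 genes of the medulla index itself, 0 were called for KO in females or males (0 at an unadjusted p under 0.05 in each, and 0 by edgeR or DESeq2). By sex, Scg5 and Stmn2, a neuronal stathmin, at -0.50 ± 0.15 (limma adjusted p = 0.0193), were lower in control females, and Scg5 was lower in knockout females. These were 2 of 17 called in controls and 1 of 17 in knockout glands, against 26.4% and 22.8% of all genes. The Stmn2 call was lost with age as a covariate, at -0.35 (adjusted p = 0.263), and without control female 3 (adjusted p = 0.0531). Of the sex calls named from these lists, those that held relative to the index were Cadps2 and Vgf in both genotypes, Egr1 in controls and Penk in knockout glands. The index median by sex was -0.21 in controls and -0.18 in knockout glands.

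Likeness to the pathway was measured as a proportionality coefficient, which is 1 for genes that move in parallel, between a gene and the mean log2(value + 1) of Th, Dbh, Pnmt, Chga and Chgb over the 20 libraries, each centred on its group mean. Over 13207 genes with a mean value of at least 50 the median coefficient was -0.03. The 8 genes most like the pathway were Gal at 0.899, Scg5 at 0.891, Iqsec3 at 0.882, Il20ra at 0.881, Frmpd1 at 0.866, Scg2 at 0.864, Scg3 at 0.863 and Bex2 at 0.861. Gal encodes the peptide galanin, and Scg2, Scg3 and Scg5 encode granule proteins. Of the 10 genes, Chga had 0.926, Th 0.891, Chgb 0.8325, Dbh 0.528 and Pnmt 0.495, each set against the mean of the others of that set without itself. Slc18a1, which is not in the set, had 0.841. Ddc had 0.742, Cyb561 0.621, Slc18a2 0.569 and Gch1 0.399, the lowest of the 10. These coefficients describe libraries that share their medulla content, and carry no test.

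Markers of the other cell types of the gland moved with some of the same comparisons, and their part in the differences above was not tested. The summed steroidogenic cortex markers, 11 genes, spanned 1208100 to 1582300 in control females, 1143500 to 1429100 in knockout females, 918800 to 1430600 in control males and 780530 to 1148200 in knockout males. By limma 7 of the 11 were called by sex in controls (6 higher in females) and 6 in knockout glands (5 higher), where 26.4% and 22.8% of all genes were called. For KO limma called 0 in females (3 at an unadjusted p under 0.05, 0 by edgeR, 1 by DESeq2) and 2, both lower, in males against 1.33% of all genes. The 10 chromaffin markers, which hold 5 of the genes described here, summed to 146700 to 196520, 131770 to 173110, 112760 to 264450 and 145770 to 183390 in control females, knockout females, control males and knockout males, and gave 1 call, Pnmt by sex in knockout glands. Both cortex and medulla were thus well represented in every library.

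Nerve and glial markers were low beside these. The 5 sympathetic neuron markers summed to 958 to 1204 in control females and 514 to 946 in knockout females, which did not overlap. Limma called 0 of 5 there (2 at an unadjusted p under 0.05, 0 by edgeR, 2 by DESeq2). Slc6a2, also in the uptake list above, made up most of each sum, at 661 to 852 in control females and 299 to 684 in knockout females. A separation of the markers without Slc6a2 was not shown. In control males they summed to 834 to 1832 and in knockout males to 1001 to 1436, with 0 of 5 called for KO, 1 by sex in controls and 2 in knockout glands, all lower in females. The 8 Schwann and sustentacular markers summed to 586 to 1511 over all libraries, with 0 called for KO in either sex (1 at an unadjusted p under 0.05 in females, and 0 by edgeR or DESeq2), 1 lower in females in controls and 3 lower in females in knockout glands. Of 7 endothelial markers limma called 0 for KO (2 at an unadjusted p under 0.05 in each sex, and 1 by DESeq2 in females), with 1 lower in females in controls and 2 in knockout glands. Macrophage markers gave 1 of 7 lower for KO in females (against 1.75% of all genes called), 1 higher by sex in controls and 1 lower by sex in knockout glands. The 6 adipocyte markers gave 0 calls in every comparison (1 at an unadjusted p under 0.05 for KO in each sex, and 1 by DESeq2 in males). The sex counts of these nerve, glial, endothelial and macrophage lists, at most 3 genes each, are too small to be read against the same 26.4% and 22.8% of all genes. For kidney tubule, 2 of 4 markers were at 0 in all libraries and the sum was at most 10.1.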

How the data were processed

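The deposited file gives a normalised signal for each of 47729 genes in each library, and 13350 genes had no signal in any. Tools named, per the submitters' processing notes, are DESeq2, featureCounts, Salmon, FastQC and MultiQC, with mm10 and GRCm38 as builds. The sources used here do not give tool roles or versions, the aligner, the annotation or the strand setting. In each library 100% of deposited values were whole multiples of 1 step within 0.01 of a read, so the signal is a read count divided by 1 size factor, and these reads were recovered. Depth is the sum of recovered reads.

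Because the values are not counts, limma 3.58.1 (R 4.3.3, trend, two-sided) modelled log2(value + 1) of the 26612 genes that reached 1 in 4 or more libraries, using all 20 libraries with 1 mean for each group and Benjamini-Hochberg adjustment over all genes. Every adjusted p is from limma unless named otherwise. edgeR 4.0.16 and DESeq2 1.42.0 were run on the recovered reads as alternatives, beside other pseudocounts (0.1 and 10), filters, age, a replicate block, scaling to the medulla index and leaving out each library. The code was tested on simulated data.

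The 10 genes, the pathway and marker lists and the tests were chosen with earlier results of these data known. Named genes are all 10, up to 4 called genes of each list in a comparison, and the 8 most alike genes. Results for some listed genes are not reported here.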

Additional observations from a re-analysis of the deposited data

Results flagged for a closer look

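In control male 2, the library with the highest medulla index, Pnmt was at 4328 normalised reads, while the other control males lay between 1398 and 2393. The gap from this library to the next was large for a group of 6. Chance gives such a gap in about 1 in 20 groups, and 44 groups were examined. Without it, the difference in Pnmt between knockout and control males was -0.425, against -0.63 with it, and neither was called by limma.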

How the results depend on the processing

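Of the 10 genes, 1 was called for KO in females, and 0 were called without a filter, with a replicate block or scaled to the medulla index, and 0 to 1 with 1 library left out. By sex in controls 1 was called, 3 when scaled and 1 to 3 with 1 library left out, and by sex in knockout glands 2, or 4 on those groups alone. Over the whole table the KO calls in females went from 467 to 913 (DESeq2) and 223 (scaled). In males they went from 354 to 195 (only those groups), 726 (DESeq2), 95 (scaled) and 217 to 477 (1 library left out). Calls for the difference of the effects went from 8 to 83 (DESeq2), 5 (replicate block), 0 (age), 0 (scaled) and 0 to 16 (1 library left out). Sex calls went in controls from 7023 to 3746 (age) and 3149 (scaled), and in knockout glands from 6055 to 2782 (scaled). The cause was not tested. Scaling moved the median of all genes to 0.21 and 0.15 for KO in females and males, and to 0.14 and 0.19 by sex.

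With the replicate number as a block, Gch1 for KO in females was 0.49 (adjusted p = 0.0634), and the table gave 368, 303 and 5 calls. The labels do not say what a number marks. Correlations of 9 same-numbered pairs ran from -0.061 to 0.142, and 3 of 9 libraries fitted best with their own number. These values, taken over all tested genes, do not settle whether numbers pair the samples. The block was not run for the sex comparisons.

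Signs turned only in differences that were not called. Scaled to the index, KO in females gave 0.15 for Pnmt and 0.0044 for Chga, KO in males 0.020 for Slc18a2, 0.0072 for Chga and 0.069 for Chgb, sex in controls 0.14 for Slc18a1, 0.14 for Chga and 0.021 for Chgb, sex in knockout glands 0.17 for Dbh and 0.13 for Chga, and the difference of effects 0.053 for Cyb561. That last value was 0.0084 by edgeR, 0.017 by DESeq2 and 0.034 with the replicate block. Sex in controls gave -0.045 for Dbh by edgeR and -0.039 by DESeq2, and 0.023 for Slc18a1 with age. With 1 library left out, KO in females gave -0.28 to 0.097 for Pnmt, KO in males -0.30 to 0.017 for Slc18a2 and -0.23 to 0.010 for Chgb. The difference of effects gave -0.19 to 0.042 for Ddc, -0.26 to 0.071 for Dbh, -0.19 to 0.069 for Chga, -0.22 to 0.014 for Chgb and -0.11 to 0.073 for Cyb561. Sex in controls gave -0.16 to 0.12 for Dbh, -0.15 to 0.051 for Slc18a1 and -0.19 to 0.069 for Chga, and sex in knockout glands -0.26 to 0.034 for Dbh. Of the comparisons of single members recomputed, 1392 kept direction and side of the threshold, 16 gained a call, 14 lost one and 48 turned.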
